A study of Mus musculus with 2 samples.

Results

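Retained-intron transcripts are annotated RNAs that keep sequence which the other transcripts of their gene splice out. Their members were chosen with earlier results of these data known, but by an annotation rule that used no measured values. Every transcript whose biotype in the deposited tables is retained_intron was taken. That gave 21848 of 141767 annotated transcripts (15.4%), and all 21848 were matched by transcript identifier to the other deposited transcript table of the same libraries. They belong to 9421 parent genes, of which 9119 are protein-coding. A parent carried a median of 2 such transcripts, 4132 parents carried 1, and the snoRNA host gene Gas5 carried 20.

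The RNA came from hippocampus, labelled as a layer of hippocampus, of females at 2 months of age. The strain was B6CASTF1/J, the F1 cross of C57BL/6J with wild-derived CAST/EiJ, and no other genotype, treatment or time was labelled. The data are total RNA sequencing of 2 libraries, named biological replicates 1 and 2, each from 300 ng of RNA. Both libraries belong to 1 group and share 1 donor record, although each has its own tissue record, so part of their spread may be technical, and no condition can be compared.

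Introns are removed from a primary transcript by the spliceosome, which recognises the 5′ splice site, the branch point and the 3′ splice site. When an intron stays in, the RNA is often held in the nucleus or, if it is exported, can be degraded by nonsense-mediated decay because the intron brings an early stop codon. In neurons some RNAs with kept introns are stored in the nucleus and completed after activity, and kinases of the CLK family and the SR proteins they phosphorylate are known examples of genes with such introns. Total RNA includes nuclear and unfinished RNA as well as mature messenger RNA, and in bulk tissue fewer cells of a type and less RNA per cell cannot be told apart.

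The 2 libraries held 29490900 and 30691916 expected counts on annotated transcripts in the first quantification and 30079336 and 30879661 estimated counts in the second, both made by the authors from the same reads. Levels are given in TPM, which adjusts counts for transcript length and sets every library to the same total. The second put far fewer counts on short RNAs, 0.528% and 0.496% of the first's on detected transcripts up to 400 bases. Protein-coding transcripts held 36.4% ± 0.201 (SD, n = 2) of annotated TPM in the first and 63.2% ± 0.426 in the second. A TPM of a single transcript is therefore not on the same scale in both quantifications, and the change of a member between them is given as its share of the gene or in counts. Detection and shares of all annotated TPM are given for each quantification and carry this difference of scale. The hippocampal genes Prox1 of dentate granule cells, at 36.0 and 43.6 TPM, and Wfs1 of pyramidal cells, at 58.4 and 56.2 TPM, were present, while the striatal receptor gene Drd2 was at 1.24 and 0.92 TPM.

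The annotated name covers different structures. A whole intron of another transcript of the gene lay inside 1 exon in 7065 members (32.3%). A further 14334 (65.6%) held no whole intron but at least 20 bases outside the exons of the gene's other transcripts, and 449 (2.06%) held fewer than 20 such bases. Of the 14334, 6508 (45.4%) ended inside an intron, 4869 (34.0%) began inside one, 2811 (19.6%) did both and 146 did neither, so nearly all of them are models that start or stop within an intron. Where a model began in an intron with a single intronic stretch, the 2 bases before the exon were AG in 4702 of 4747 (99.1%), and where it ended in one the 2 bases after the exon were GT in 6092 of 6270 (97.2%). In 791 members (3.62%) at least 20 of the bases counted as intronic lay beyond the outermost ends of the gene's other transcripts. Members had a median length of 881 bases and 3 exons, against 1816 bases and 6 exons for protein-coding transcripts.

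The intronic stretches of 5 of the most abundant members are shown because they are the bases of these models that lie outside the exons of the gene's other transcripts. Sequences were read from the GENCODE M21 transcripts (mm10) and run 5′ to 3′ along the RNA, with the intronic bases in capitals and up to 20 exonic bases in lower case. Uchl1-202, Itm2b-202, Rps16-203 and Atp5j-208 begin inside an intron, while Ywhae-204 stops inside one. In order, the capitals lie at chr5:66676892-66676943 (plus strand), chr14:73368428-73368505 (minus), chr7:28350924-28350991 (plus), chr16:84831508-84831607 (minus) and chr11:75757024-75757116 (plus).
Uchl1-202: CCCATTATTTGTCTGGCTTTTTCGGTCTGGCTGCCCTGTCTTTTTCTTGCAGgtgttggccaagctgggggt
Itm2b-202: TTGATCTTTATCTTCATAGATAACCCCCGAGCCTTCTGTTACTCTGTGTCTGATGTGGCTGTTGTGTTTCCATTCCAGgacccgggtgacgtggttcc
Rps16-203: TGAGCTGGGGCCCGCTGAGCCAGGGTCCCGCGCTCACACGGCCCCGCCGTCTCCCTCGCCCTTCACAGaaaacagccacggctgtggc
Atp5j-208: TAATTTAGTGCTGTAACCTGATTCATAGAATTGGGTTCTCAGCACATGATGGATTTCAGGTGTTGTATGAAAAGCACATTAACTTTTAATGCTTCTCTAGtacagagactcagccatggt
Ywhae-204: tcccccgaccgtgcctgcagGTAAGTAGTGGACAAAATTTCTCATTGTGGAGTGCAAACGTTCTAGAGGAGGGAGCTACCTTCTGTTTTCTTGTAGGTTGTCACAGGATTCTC
The first 4 stretches run up to an AG at the exon border, the last bases of a 3′ splice site. Ywhae-204 reads through the 5′ splice site GTAAGT.

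Whole introns kept inside a member are shown for 5 parents in which retained-intron transcripts held a high share of the gene. The intron alone is printed, with the first stop codon in the reading frame of the most abundant coding transcript that splices it in capitals. They are Rps20-201 at chr4:3835292-3835483 (minus strand, 192 bases), Mrps26-201 at chr2:130564228-130564307 (plus, 80 bases), Carmil2-201 at chr8:105690920-105691082 (plus, 163 bases), Taf10-201 at chr7:105743341-105743427 (minus, 87 bases) and Glt8d1-207 at chr14:31011031-31011120 (plus, 90 bases).
Rps20-201: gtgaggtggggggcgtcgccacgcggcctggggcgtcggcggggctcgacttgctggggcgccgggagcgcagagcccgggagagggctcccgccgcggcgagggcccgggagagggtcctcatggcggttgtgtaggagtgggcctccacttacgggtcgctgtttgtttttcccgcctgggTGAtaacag
Mrps26-201: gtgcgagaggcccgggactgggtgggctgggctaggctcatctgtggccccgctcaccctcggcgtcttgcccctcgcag
Carmil2-201: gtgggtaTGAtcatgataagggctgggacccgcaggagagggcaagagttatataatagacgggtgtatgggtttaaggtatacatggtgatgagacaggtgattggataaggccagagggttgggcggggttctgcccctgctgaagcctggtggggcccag
Taf10-201: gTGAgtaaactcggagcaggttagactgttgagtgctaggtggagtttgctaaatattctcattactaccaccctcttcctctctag
Glt8d1-207: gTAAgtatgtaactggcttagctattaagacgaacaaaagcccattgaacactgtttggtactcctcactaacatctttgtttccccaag
In Taf10 and Glt8d1 the stop begins at intron base 2, inside the 5′ splice site, and in Carmil2 at base 8. In Rps20 it begins at base 184 of 192. The Mrps26 intron has none in frame and its length is not a multiple of 3, so keeping it shifts the frame downstream.

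Clk1 and Clk4 encode closely related kinases that phosphorylate SR proteins. In each gene a member, Clk1-204 or Clk4-213, kept the introns on both sides of an exon that other transcripts skip. The exons lie at chr1:58420121-58420211 (minus strand) and chr11:51273078-51273168 (plus strand), and are printed in capitals with 2 intron bases on each side.
Clk1: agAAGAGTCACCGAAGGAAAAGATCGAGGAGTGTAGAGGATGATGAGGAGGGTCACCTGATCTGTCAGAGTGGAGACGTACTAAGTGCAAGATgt
Clk4: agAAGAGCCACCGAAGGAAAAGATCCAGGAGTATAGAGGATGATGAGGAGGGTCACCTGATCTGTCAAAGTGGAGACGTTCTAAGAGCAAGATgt
Both exons are 91 bases long, which is not a multiple of 3, and 85 of the 91 bases (93.4%) are the same. The 5′ splice sites of the introns after these exons, with the first 6 intron bases in capitals, also share their opening.
Clk1: agtgcaagatGTATAGaatatttttcaaca
Clk4: agagcaagatGTATAGaatatttttcaaca
The first 23 bases of these introns are identical between the genes, and the first 9 bases of the introns before the exon are. Both introns open with GTATAG, which departs from the common GTAAGT and GTGAGT openings.

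Retained-intron transcripts were detected, at 1 TPM or more in both libraries, in 7877 cases (36.1%) in the first quantification and 10750 (49.2%) in the second. Protein-coding transcripts were detected in 35.9% and 42.1%, and transcripts labelled for nonsense-mediated decay in 20.4% and 34.6%. In the first quantification 2764 members (12.7%) had 0 counts in both libraries, against 33.2% of protein-coding transcripts. Members with a whole intron were detected in 2812 of 7065 cases (39.8%), and members with part of an intron in 4934 of 14334 (34.4%).

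All members together held 3.82% and 3.93% of annotated TPM in replicates 1 and 2 in the first quantification (3.88% ± 0.0761, SD, n = 2). In the second they held 7.60% and 7.75% (7.67% ± 0.106). The gap between the quantifications was smaller with other denominators. As a share of counts the members held 3.76% and 3.89% in the first and 4.09% and 4.22% in the second, and within protein-coding genes they held 8.69% and 8.96% of TPM in the first and 9.53% and 9.76% in the second. Whole-intron members made up 31.3% and 31.5% of the members' TPM in the first quantification but 47.2% and 47.4% of their counts, because they are longer, with a median of 1816 bases against 781 for members with part of an intron. In both quantifications the value was higher in replicate 2 than in replicate 1.

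The most abundant members were short forms of highly expressed genes. Uchl1-202, of the neuronal ubiquitin hydrolase gene, had 238 and 221 TPM in the first quantification, 68.8% and 70.3% of its gene. The authors' TPM intervals for it were 219 to 243 and 203 to 225, so the 2 libraries overlap. The second quantification listed it at 0 in both libraries. Itm2b-202, of a membrane protein gene linked to amyloid processing, had 163 and 160 TPM, 41.1% and 41.5% of its gene, and kept 29.8% and 30.8% of the gene in the second. Prkcb-208, of the calcium-dependent protein kinase C beta, is a single exon of 955 bases with 297 intronic bases and had 126 and 132 TPM. It held 41.4% and 42.3% of Prkcb TPM in the first quantification and 33.1% and 34.8% in the second, so its share was of like size in all 4 estimates.

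Housekeeping genes filled most of the other high places. Rps16-203, Rps26-202 and Rps20-201, of small ribosomal subunit proteins, lay at 111 and 119, 108 and 112, and 92.5 and 96.8 TPM. Hspa8-204, of a constitutive heat shock protein, was at 131 and 98.2 TPM, the widest gap between libraries among the 12 highest members, with overlapping intervals of 91.1 to 158 and 68.2 to 126. It held 16.1% and 11.8% of the gene in the first quantification and 0.81% and 1.40% in the second. Ywhae-204, of a 14-3-3 protein, and Ppia-203, of cyclophilin A, had 110 and 97.2 and 108 and 87.0 TPM but at most 0.398% of their gene in the second quantification. Rps16-203 held 58.4% and 62.1% in the first and 80.0% and 80.0% in the second, whereas Rps26-202 held 93.6% and 94.3% in the first and 47.1% and 48.2% in the second. Ribosomal protein and cyclophilin genes have many near-identical processed pseudogenes, so their values are uncertain.

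Shares of the parent gene were compared over the 6248 parents (66.3%) with 5 TPM or more in both libraries. The median share of gene TPM on retained-intron transcripts was 12.4% in replicate 1 and 13.2% in replicate 2 in the first quantification (12.8% ± 0.539, SD, n = 2), and 12.9% and 13.3% in the second (13.1% ± 0.277). In replicate 1 the middle 50% of parents ran from 5.26% to 25.6%. Transcripts for nonsense-mediated decay held a median of 4.28% in the 2443 of these parents that have them, and protein-coding transcripts 78.7% in 6209. Counted in reads instead of TPM the median was 6.52%, since TPM gives short models more weight. In the 3024 of these parents with a whole-intron member, the median share of those members alone was 7.96%.

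Few genes were dominated by such transcripts. In the first quantification 309 parents (4.95%) had a share of 50% or more in both libraries, in the second 304, and 183 had it in both quantifications, 59.2% of the first list and 60.2% of the second. A retained-intron transcript was the highest transcript of the gene in both libraries in 257 parents (4.11%) in the first and 280 in the second, with 126 in both. At the other end 1136 parents were below 5% in both libraries. With only whole-intron members counted, 64 parents reached 50%. Across the 6248 parents, which share libraries and reads, the Spearman correlation of the share was 0.939 between libraries and 0.815 between quantifications. The median absolute difference was 1.92 percentage points between libraries and 2.97 between quantifications.

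**Figure D1:**
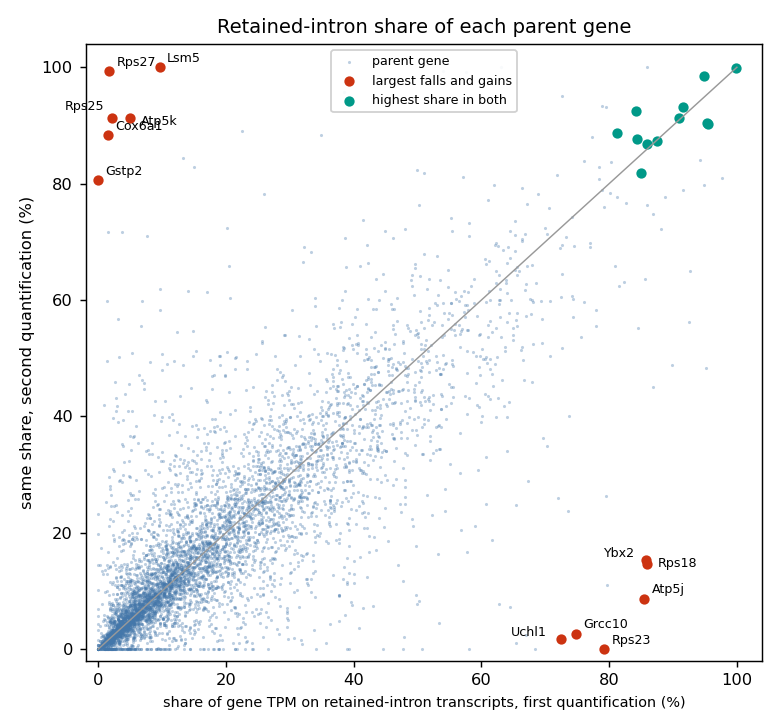
Mean share of gene TPM on retained-intron transcripts over 2 libraries for each of 6248 parent genes, in the first (x axis, %) and second (y axis, %) quantification. The line marks equal shares, most genes lie near it, and the named red points are the genes with the largest falls and gains.

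Parents with the highest share in both quantifications carried roles from translation in mitochondria to transcription. Carmil2, a regulator of actin filament ends, had 99.8% of its 30.6 and 27.8 TPM on its 2 members in both libraries. Carmil2-201, with the intron printed above, had 23.4 and 21.1 TPM, and transcripts that splice this intron had 0.05 and 0.05 TPM. The annotated 5′ end of Carmil2-201, at chr8:105690906, lies just before this intron, while the gene starts at chr8:105686274. Mrps26, of the small subunit of the mitochondrial ribosome, had 91.5% and 90.4% on its single member Mrps26-201 in the first quantification and 92.0% and 90.7% in the second. Libraries and quantifications overlap for this gene. Rps20 had 95.1% and 94.6% in the first and 98.5% and 98.3% in the second. Rps20-201 starts just before the intron it keeps, at its annotated 5′ end, and with 92.5 and 96.8 TPM stood beside 5.47 and 6.40 TPM of transcripts that splice it.

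Other parents of this kind reached their share by several members. Taf10, a subunit of the general transcription factor TFIID, had 92.2% and 90.8% in the first quantification. Its whole-intron member Taf10-201 held 19.7% and 17.5% of the gene and Taf10-202, with 98 intronic bases, held 47.9% and 48.6%. Rgs11, which speeds the switching off of G protein signals, had 8 members and a share of 96.5% and 94.6%. Its highest member in the first quantification, Rgs11-211, held 27.3% and 27.5% of the gene there but 2.66% and 6.15% in the second, where Rgs11-208 led. Atg4d, an autophagy protease, had 88.6% and 86.5%, and the transcript Atg4d-203 with a 77-base intron kept 52.1% and 43.4% of the gene. Thoc1, of the THO complex that couples transcription to RNA export, had 95.5% and 95.2% over 11 members. Its second-quantification shares were 86.5% and 94.3%, the widest library gap among the 12.

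The remaining parents of this rule were Mrpl57 and Mrps25 of the mitochondrial ribosome, the glycosyltransferase gene Glt8d1, the methyltransferase gene Hemk1 and the TFIIH subunit gene Gtf2h3. Mrpl57 had 87.0% and 84.9% in the first quantification and Mrps25 84.5% and 84.1%, neither with a whole-intron member. Gtf2h3, also without one, had 79.1% and 83.4%. Glt8d1 had 83.0% and 85.4% over 7 members, of which the highest was at 3.85 and 3.70 TPM, and Hemk1 had 85.4% and 84.4%. In all 12 parents a retained-intron transcript was the highest of the gene by TPM in both quantifications. As a share of expected counts, which does not raise short models, all 12 were lower, at 30.5% to 99.7%. Mrps25, at 30.5%, and Mrpl57, at 48.1%, were then under 50%, and Taf10 was at 55.4%.

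**Figure D2:**
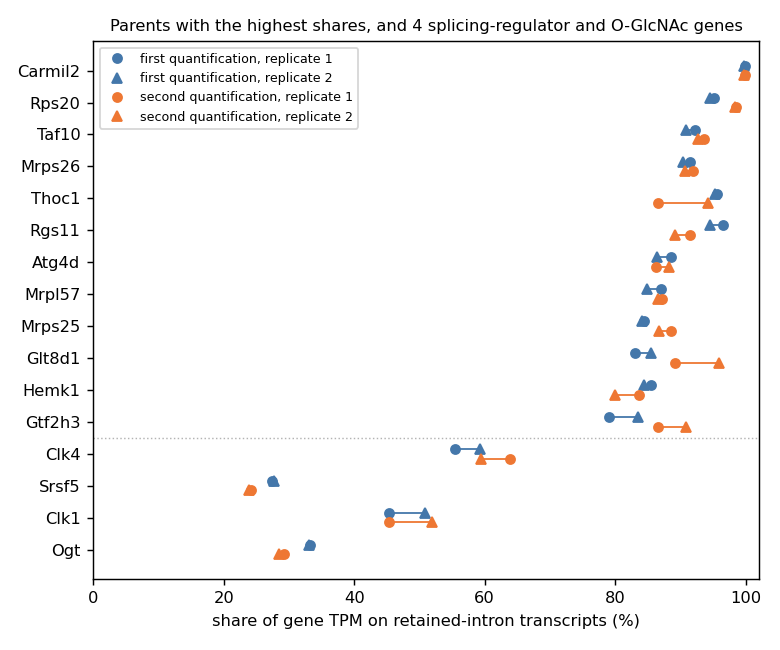
Share of gene TPM on retained-intron transcripts (x axis, %) for the 12 protein-coding parents with the highest shares and, under the dotted line, Clk4, Srsf5, Clk1 and Ogt. Circles are replicate 1 and triangles replicate 2, blue is the first and orange the second quantification, and lines join the libraries; the 12 parents sit between 79.1% and 99.8%.

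Among genes known for nuclear RNAs with kept introns, Clk4 had 51.8 and 50.9 TPM, of which retained-intron transcripts held 55.4% and 59.2%, and in the second quantification 63.8% and 59.4%. Its highest transcript was a member, Clk4-207, with 14.8 and 13.9 TPM, which holds part of an intron but no whole one. Members with a whole intron held 11.5% and 13.7% of Clk4 TPM in the first quantification. Clk1 had 45.3% and 50.9% in the first quantification and 45.3% and 52.0% in the second. Its whole-intron members held 16.7% and 19.1% in the first. The highest Clk1 transcript, Clk1-210, is labelled for nonsense-mediated decay. For single introns, a retention level was taken as the TPM of members that keep the intron over that sum plus the TPM of transcripts that splice exactly that intron. The introns before and after the 91-base Clk1 exon had levels of 72.3% and 81.5%, and 51.8% and 62.3%. Those around the Clk4 exon had 42.8% and 60.3% each, as 1 member keeps both and the same transcripts splice both. Transcripts that skip the exon remove the same introns in a longer one and are not in these levels. They had 20.97 and 19.3 TPM in Clk1 and 7.18 and 5.77 in Clk4. With them added to the splicing side the Clk1 levels were 29.3% and 35.1% before the exon and 25.2% and 31.0% after it, and the Clk4 levels 28.3% and 39.9%. Replicate 2 was higher for all 4 introns with and without them. The values rest mainly on Clk1-204 at 9.40 and 10.7 TPM, beside Clk1-212 at 0.93 and 1.21, and on Clk4-213 at 5.96 and 6.80 TPM.

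Srsf5 encodes an SR protein, and members held 27.4% and 27.7% of its 147 and 140 TPM, and 24.1% and 23.9% in the second quantification. Srsf5-212 alone had 36.0 and 33.0 TPM and keeps an intron of 1229 bases at chr12:80947866-80949094, which holds a shorter annotated intron of 263 bases. The level of the long intron was 43.2% and 43.8% in the first quantification and 41.1% and 41.7% in the second. It leaves out the 1 transcript that splices the shorter intron from the same 5′ splice site, at 44.9 and 45.0 TPM in the first. The level of the shorter intron was 47.2% and 46.2% in the first quantification. Ogt, the only enzyme that adds O-linked N-acetylglucosamine to nuclear and cytosolic proteins, had 33.2% and 33.0% of 90.9 and 94.2 TPM on members, and 29.3% and 28.4% in the second. Ogt-204, with 21.5 and 21.1 TPM, carries most of it and keeps a 107-base intron at chrX:101640111-101640217 at levels of 72.4% and 77.1%. Its annotated 5′ end, at chrX:101640108, lies just before that intron. Transcripts that splice that intron exactly had 8.17 and 6.28 TPM, while the leading coding transcript Ogt-201 was at 41.5 TPM in replicate 1, so the level does not cover the whole gene. Ogt-204 also keeps a 1767-base intron at chrX:101652209-101653975, at levels of 100% and 93.6%. The 1 transcript that splices this longer intron had 0 and 1.45 TPM. Ogt-207 had 8.67 and 9.97 TPM in the first quantification and was listed at 0 in the second. The long non-coding gene Meg3 has no retained-intron transcript in this annotation.

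Over the splicing machinery the shares were high as a group. The 16 measured parents among kinases of SR proteins and SR proteins had a median share of 30.4% and 31.8%, beside 12.4% and 13.2% over all 6248 parents, and 14 of the 16 lay above the median of all parents in both libraries, as did 14 in the second quantification. Srsf11 led with 73.9% and 74.9%, and its member Srsf11-208 keeps a 1963-base intron at levels of 65.2% and 62.9%. Clk3 had 50.3% and 52.8%. In the second quantification Srsf11 had 59.8% and 60.7% and Clk3 38.5% and 40.3%. The 29 spliceosome and speckle proteins had a median of 30.4% and 30.5%, with 22 of 29 above the median of all parents in both libraries. Ccnl2, of the speckle protein cyclin L2, had 63.3% and 70.4%. Snrnp70, of the U1 snRNP, had 64.5% and 62.0%, and Ccnl1, of cyclin L1, had 56.9% and 61.7%. In the second quantification Snrnp70 fell to 48.3% and 44.2%, while Ccnl2 had 66.8% and 76.0% and Ccnl1 54.8% and 59.7%. Snrnp70-216 had 47.6 and 44.4 TPM, 25.1% and 22.1% of its gene, over 4008 bases. The Ccnl2 intron at chr4:155818665-155820328 (1664 bases) had a level of 80.7% and 83.1%. As shares of expected counts the medians of these lists were 31.9% and 35.4%, and 16.9% and 18.8%, beside 6.52% over all parents.

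The 24 hnRNPs and other RNA-binding proteins had a median of 6.93% and 7.85%, with 8 of 24 above the median of all parents in both libraries. Within that list Ptbp1 had 42.9% and 44.4% and Hnrnph3 30.2% and 41.7% in the first quantification. Both were lower in the second, Ptbp1 at 31.8% and 26.6% and Hnrnph3 at 13.96% and 22.5%. By expected counts Hnrnph3 had 15.4% and 21.3%, while Ptbp1 had 42.3% and 44.5%.

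Histone and DNA modifying enzymes (32 parents) had a median of 16.9% and 18.4%, with Hdac7 at 48.0% and 48.2%, Hdac5 at 41.4% and 41.9% and Hdac1 at 41.3% and 39.7%. As shares of expected counts the list's median was 5.48% and 5.98%, under that of all parents. The Hdac5 value in the second quantification was lower, at 24.6% and 22.6%. The 5 measured snoRNA host genes, whose introns carry small nucleolar RNAs, had 32.1% and 38.7%, led by Snhg5 at 66.8% and 63.7% and Snhg1 at 53.0% and 42.9%, with Gas5 at 32.1% and 38.7%. Clock genes (9 parents) had 17.6% and 15.9%, led by Per3 at 29.0% and 36.2%, with Nr1d2 at 27.3% and 25.4% and Dbp at 23.3% and 20.5%. The 20 aminoacyl-tRNA synthetases had 9.34% and 14.9%, led by Qars at 47.2% and 43.7%, with Farsa at 43.8% and 43.7% and Tars at 40.8% and 46.1%. That list's median differed more between libraries than that of all parents. In expected counts Qars had 28.1% and 33.4%, Farsa 44.5% and 45.3% and Tars 11.1% and 13.2%.

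Lists of neuronal genes lay on both sides of the median of all parents. The 7 glutamate receptor subunits had a median of 13.9% and 18.5% in the first quantification and 13.3% and 10.98% in the second, on either side of all parents. Gria2, the AMPA receptor subunit that sets calcium permeability, had 34.0% and 36.5% of 279 TPM in replicate 1 on members. Gria2-206, which keeps an intron, had 35.5 and 39.0 TPM. Grik1 had 27.9% and 35.1% and Grin2a, an NMDA receptor subunit, 21.6% and 19.8%. By expected counts Gria2 had 23.7% and 25.7%, Grik1 24.3% and 29.4% and Grin2a 5.84% and 5.57%. GABA receptor subunits (7 parents) had a median of 11.2% and 10.3%, led by Gabrg1 at 29.4% and 36.4%, then Gabrg3 at 25.3% and 28.4%. In expected counts these were 16.3% and 21.4%, and 5.73% and 6.13%. Voltage-gated ion channels (15) had 10.3% and 12.8%. They were led by the calcium channel genes Cacnb2 at 32.8% and 29.95%, Cacna1e at 27.6% and 27.5% and Cacna1a at 26.1% and 26.6%. By expected counts Cacnb2 had 23.9% and 22.2%, Cacna1e 8.75% and 8.73% and Cacna1a 7.19% and 6.98%. The list's median was then 3.55% and 4.23%, beside 6.52% over all parents. Immediate early genes (5) had 13.2% and 17.8%, and 22.5% and 24.5% in the second quantification, led by Egr3 at 32.6% and 34.4% through Egr3-202, a single exon with 221 intronic bases, followed by Dusp1 at 23.7% and 31.7%. Fosl2 had 13.2% and 17.8% in the first quantification and 30.2% and 31.7% in the second.

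The synaptic vesicle and exocytosis list (13 parents) had a median of 2.73% and 2.95%, with 2 of 13 above the median of all parents in both libraries. Its highest members were Unc13a, which primes vesicles for release, at 25.9% and 26.3%, Syn3 at 16.2% and 18.1% and Dnm1, the GTPase that pinches off vesicles, at 7.79% and 8.57%. As shares of expected counts Unc13a had 5.28% and Dnm1 2.13%, while Syn3 was higher, at 26.9% and 29.4%. Postsynaptic density genes (14) had 6.83% and 6.94%, led by Homer3 at 30.2% and 31.9%, then Dlgap1 at 16.8% and 17.4% and Dlg1 at 10.9% and 15.01%. Astrocyte and myelin genes (11) had 2.15% and 2.59%, with 0 of 11 above the median of all parents in both libraries in the first quantification. The glutamate transporter gene Slc1a3 had 16.1% and 12.2%, above that median in replicate 1, and Sox10, a transcription factor of oligodendrocytes, had 7.98% and 17.1%, above it in replicate 2. Aldh1l1 had 11.4% and 9.92%. In the second quantification Slc1a3 had 31.0% and 33.4%.

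Metabolic and translation genes had low medians with a few very high members. The 53 cytosolic ribosomal proteins had a median of 2.94% and 3.17% in the first quantification, while 5 of them reached 50% in both libraries, among them Rps16 at 98.3% and 97.0%, Rps20 and Rps18. The mean over the list was 14.6%. Respiratory chain subunits (22) had 4.30% and 5.20%. They were led by Atp5j at 84.0% and 87.0%, with Ndufv1 at 42.0% and 41.3% and Ndufa10 at 29.0% and 23.2%. By expected counts Atp5j had 79.0% and 82.0%, Ndufv1 16.5% and 17.8% and Ndufa10 16.7% and 13.7%. Glycolysis enzymes (14) had 1.43% and 1.86%, with Pfkp at 34.8% and 37.3%, Gpi1 at 24.2% and 24.7% and Eno2 at 23.4% and 19.99% highest. In the second quantification Pfkp had 22.2% and 20.8%, Gpi1 19.9% and 20.5% and Eno2 27.1% and 24.5%. Heat shock proteins and chaperones (14) had 8.25% and 10.9%, with Cct3 at 39.5% and 40.0%, Hsph1 at 30.01% and 31.4% and Dnajb2 at 12.4% and 19.0%. In the second quantification Cct3 was at 7.88% and 7.39%. The brain long non-coding list had 1 parent, Sox2ot, at 0.343% and 0.532%, and the O-GlcNAc cycling list had Ogt alone.

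**Figure D3:**
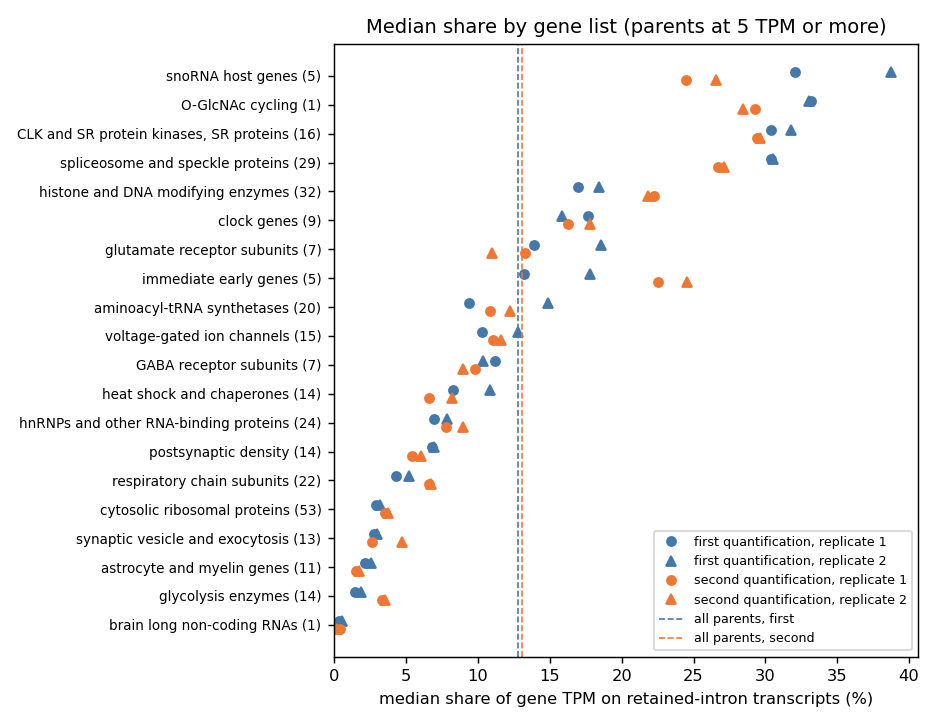
Median share of gene TPM on retained-intron transcripts (x axis, %) over the parents at 5 TPM or more in each of 20 gene lists, with the number of parents in brackets. Circles and triangles are replicates 1 and 2, blue and orange the first and second quantification, and dashed lines mark the medians of all 6248 parents; the SR protein and spliceosome lists lie near 30% and the synaptic vesicle, myelin and glycolysis lists under 5%.

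The quantifications were compared transcript by transcript on counts. Of 13048 members with a mean of 10 counts or more, 1681 (12.9%) were lower in the second quantification by a log2 ratio of at least 1 in both libraries, and 659 (5.05%) were higher. Over all transcripts the shares were 14.2% lower and 7.9% higher, and the members' percentages lay under both. The difference went with length. Of members up to 500 bases 63.4% were lower, against 9.28% of longer ones, and over all transcripts the values were 68.3% and 10.9%. Of members at 1 TPM or more in the first quantification, the second listed at 0 in both libraries 57.4% of those up to 400 bases, 21.9% from 401 to 500 bases and 0.691% above 1500. The transcript length minus the effective length was 337 and 339 bases in the second quantification, against a value that implies reads of 100 bases in the first.

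**Figure D4:**
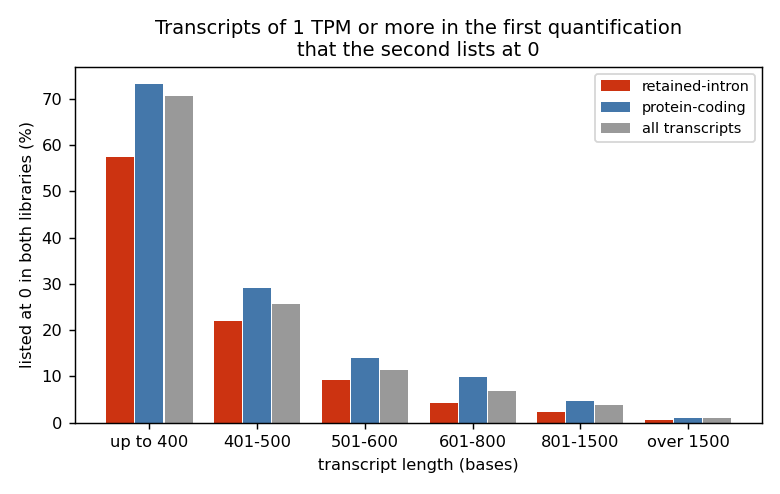
Share of transcripts at 1 TPM or more in both libraries in the first quantification that the second listed at 0 in both (y axis, %), by transcript length (x axis, bases), for retained-intron, protein-coding and all transcripts. Bars for members go from 57.4% at up to 400 bases to 0.691% above 1500, and lie under those of all transcripts in each class.

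The 6 genes with the largest loss of share from the first to the second quantification lost it mostly through 1 member. Rps23 had 75.8% and 82.7% in the first quantification and 0% in the second, through Rps23-202 of 450 bases. Atp5j, of the ATP synthase stalk, had 84.0% and 87.0% and then 7.91% and 9.33%, and its coding transcript Atp5j-203 led in the second. Grcc10 had 74.9% and 74.7% and then 2.13% and 3.19%, through Grcc10-203 of 424 bases with 20 intronic bases. Rps18 had 80.5% and 91.3% and then 16.9% and 12.4%. Uchl1 had 71.5% and 73.5% and then 1.78% and 1.51%, with the coding Uchl1-201 leading, although Uchl1-202 is 980 bases long. Ybx2, of a germ cell RNA-binding protein, had 90.8% and 80.8% of 6.19 and 5.67 TPM and then 0% and 30.6%, a gap between libraries that leaves its second value unclear.

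The opposite also occurred, in 6 genes with the largest gain. Cox6a1, of cytochrome c oxidase, had 0.932% and 1.98% in the first quantification and 88.6% and 88.0% in the second, through its single member Cox6a1-202 (620 bases, 1 whole intron), which had 29.2 and 62.3 expected counts and then 2198 and 2107 estimated counts. Atp5k had 3.33% and 6.62% and then 85.4% and 97.1%. Rps25 had 2.94% and 1.34% and then 91.3% and 91.4%, and Rps27 1.69% and 1.70% and then 99.5% and 99.2%. Lsm5 had 8.79% and 10.4% and then 100% in both libraries, on 55 and 37 estimated counts of Lsm5-202. Gstp2, a near copy of its neighbour Gstp1, had 0% and then 77.0% and 84.3%. These rest on few estimated counts, 30.9 and 23.5 for Gstp2-204 and 0 and 45.2 for Gstp2-205, so the leading member differed between libraries. In each of these 12 genes the 2 libraries lay on the same side of 50% within each quantification.

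The kept introns themselves were short. Members held 10386 distinct introns of at least 50 bases, nested ones counted separately, in 4313 genes. Their median length was 290 bases, with a middle range from 127 to 744, against 1101 bases (354 to 2872) for 68317 other introns of the same genes. In 3517 of 4249 genes with both kinds (82.8%) the kept introns were shorter by median, and the median ratio per gene was 2.52. A kept intron must fit inside an annotated exon, so long introns are less likely to enter the set.

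**Figure D5:**
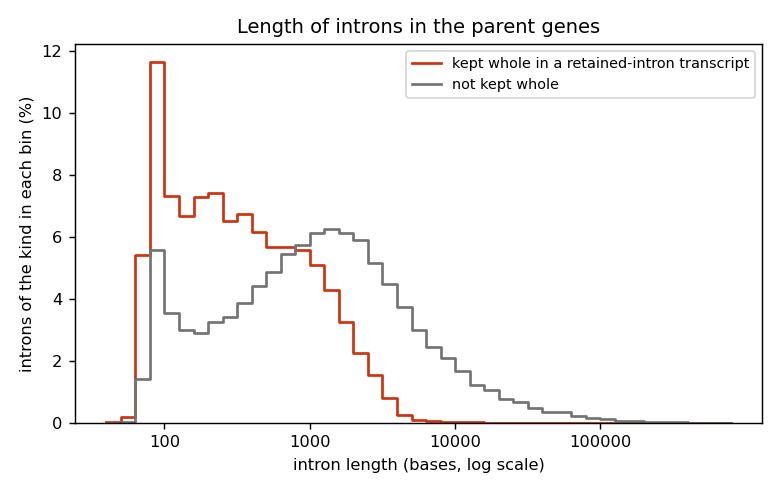
Length of introns (x axis, bases, log scale) kept whole in a retained-intron transcript (red) and of the other introns of the same 4313 genes (grey), as the percentage of introns of each kind per bin (y axis). The red curve peaks near 100 bases, and the grey curve has a second, broad peak above 1000.

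Splice site bases were mostly of the usual kind. GT and AG ended 97.9% of the 10386 kept introns, GC and AG 1.43%, and AT and AC 12 introns. The opening GTAAGT was found in 9.31% and GTGAGT in 14.1%, read on the transcript strand. An opening of ATATCCT or GTATCCT, the 5′ motif of the minor spliceosome, was found in 59 introns (0.568%). Median GC content was 51.0% in the introns and 52.5% in the rest of the transcripts that keep them, and 59.2% of introns lay below the rest of their transcript. Of 7934 introns between coding exons whose frame could be read, 89.0% held an in-frame stop codon. The 869 without a stop had a median length of 94 bases, against 319 for those with one, and 237 of the 869 also had a length that is a multiple of 3, so they keep the frame open.

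Retention levels were low for most of these introns. Over 5667 introns with at least 5 TPM on keeping plus splicing transcripts, the median level was 8.71% and 9.38% in the first quantification and 9.44% and 10.1% in the second. A level of 50% or more in both libraries was reached by 411 introns in the first quantification, and 336 of these were also there in the second. Introns of 50 to 100 bases had a median of 9.10% and 9.59% and introns over 1000 bases 7.04% and 7.54%, a small distance next to the middle range of 3.99% to 19.1% over all introns in replicate 1.

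Of the 13048 members with a mean of 10 counts or more, 1474 (11.3%) differed by 1 or more on the log2 scale, beside 14.5% of all transcripts. Of these, 853 were higher and 621 lower in replicate 2, and 106 of the 1474 had TPM intervals that did not overlap. The share was 20.96% at a mean of 10 to 30 counts and 0.326% at 300 counts or more, so it went with depth. For protein-coding transcripts the same bins gave 41.9% and 1.38%. The median log2 ratio of replicate 2 to replicate 1 was 0.06 for members and 0.0054 for all transcripts. With 1 library on each side there is no test of these ratios.

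The members with the largest ratios were listed at 0 in 1 library. Polrmt-203 had 186 expected counts in replicate 1 and 0 in replicate 2, with TPM intervals of 0.133 to 3.96 and up to 1.10, so they overlap. In the second quantification it had 105 estimated counts in replicate 1 and was near 0 in replicate 2, the same gap. Rap1gap-209, with 137 counts and 0, had intervals of 3.43 to 10.4 and up to 3.25, which do not. The second quantification listed Rap1gap-209 at 0 in both libraries. Ano3-202 had 0 counts in replicate 1 and 162 in replicate 2, with intervals up to 1.51 and from 1.68 to 4.48, but 190 and 307 estimated counts in the second quantification. Synj1-201, Spout1-207 and Acsl3-207 had 123, 121 and 106 counts in replicate 1 and 0 in replicate 2. Adarb1-211, Rpl10a-208, Wdr90-203 and St7-216 had 0 in replicate 1 and 127, 141, 148 and 188 counts in replicate 2. The second quantification gave each of these 7 members at least 29.5 estimated counts in both libraries.

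At the level of the gene, 331 of 6248 parents (5.30%) differed by 10 percentage points or more in their retained-intron share between the libraries, beside 7.26% over all transcript classes of genes with several classes. The share was higher in replicate 2 in 202 of these and lower in 129. Over all parents it was higher in replicate 2 in 3513 and lower in 2702, with a median difference of 0.359 percentage points. Protein-coding shares went the other way, higher in 2746 and lower in 3448, and shares of transcripts for nonsense-mediated decay were higher in 1048 and lower in 976. The classes of a gene divide the same total, so these directions are not separate observations.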

How the data were processed

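Total RNA of 2 hippocampus libraries was used. The first quantification is the authors' deposited table in the column layout of RSEM, with an expected count and a TPM per transcript and a score for each end of a TPM interval. The second is their deposited table in the layout of kallisto, with an estimated count and TPM. Their software and any use of strand are not given in the sources used here. The file notes name mm10 and annotation M21, whose transcripts gave structures and sequences. Spike-in and tRNA entries were left out, as were the gene tables.

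Members and gene lists were chosen with earlier results of these data known. A parent's share is the TPM of its retained-intron transcripts over that of all its transcripts, for parents at 5 TPM or more in both libraries. Values are means ± SD over 2 libraries, and counting limits the precision of low values. TMM factors came from edgeR 4.0.16 (R 4.3.3) on rounded expected counts. Replicate 2 was set over replicate 1 with 0.5 added to each count, for transcripts at a mean of 10 counts or more. As 1 library was set against 1 library, no p-value was computed. Reads shared by members of a gene, overlapping genes or near-identical copies can be split differently by each method.

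Genes were named by rule: the 12 members with the highest mean TPM, the 12 protein-coding parents with the highest share in both quantifications, the 3 highest parents of each of 20 lists, the 6 largest falls and 6 gains between quantifications, the 5 members with the largest ratio in each direction at 50 counts or more, and Clk1, Clk4, Ogt, Srsf5 and Meg3. A few genes that the rule names are not reported here. Single members and introns named within list genes, and the tissue genes, were chosen once values had been seen. The ratio was tested on simulated data, where 96.5% of 200 transcripts shifted by 1.5 on the log2 scale were called among 53878. The 200 were drawn from members at a mean of 50 counts or more, while the ratio was used from 10. Of those not shifted 2.23% were called, beside 14.5% of all transcripts in the data. The simulation therefore does not give the rate of calls to expect in the data. The alternatives were the second quantification, DESeq2 1.42.0 size factors, shares of counts, other minimums and pseudocounts, each replicate left out and, added after the data were seen, list medians from counts, levels with exon-skipping transcripts, and members with a whole intron, with 100 intronic bases, or with a lower TPM bound of 1. Python 3.11.15, numpy 2.4.6, pandas 2.3.3 and matplotlib 3.10.9 were used.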

Additional observations from a re-analysis of the deposited data

How the results depend on the processing

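The median parent share of 12.8% moved to 6.52% with shares of expected counts, to 13.4%, 10.7% and 13.3% with parents at 1 TPM, at 20 TPM or above 0 TPM, and to 7.96% and 10.9% with members that hold a whole intron or 100 intronic bases, over parents that have such a member. The 309 parents at 50% or more became 139 at 20 TPM, 540 above 0 TPM, 64 with whole-intron members and 151 with 100 intronic bases. The 257 parents led by a member became 127, 476, 94 and 152 under the same settings. The 7877 detected members became 1213 at a minimum of 5 TPM, 4494 with a lower TPM bound of 1 and 2812 with whole-intron members. The TPM share of 3.88% moved to 7.67% in the second quantification, 6.09% over transcripts above 300 bases, 8.82% in protein-coding genes, 1.22% for whole-intron members and 2.94% for those with 100 intronic bases. The 1474 members apart between libraries became 4846 without a filter on low counts, 154 at a minimum of 50 counts and 965 with a pseudocount of 5, and the 331 parents apart became 34 at 20 points, 1294 at 5 points, 734 with parents at 1 TPM and 60 at 20 TPM. With DESeq2 size factors 1465 members were apart, and with library totals alone 1479. With each replicate left out, the median share ran from 12.4% to 13.2% and the parents at 50% from 365 to 387. Of 20 lists, 8 had a median share above that of all parents, 7 in the second quantification, 6 by means and 7 with shares of expected counts. Of 99 shares of named parents and list medians, 16 lay within 1 SD of the 2 libraries in the second quantification. Of 79 named parents, 9 lay within 1 SD with shares of expected counts, 30 were over 1.5 times lower and 7 over 1.5 times higher. The median for histone and DNA modifying enzymes then lay at 5.73%, under that of all parents. The causes were not tested. Intervals and counts of 0 come from 1 library each and do not measure the spread between libraries. Levels under 10 counts say little about a member.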
